A study of Homo sapiens with 4 samples.

Results

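The desmosome genes are the 10 genes *DSG2*, *DSG3*, *DSC2*, *DSC3*, *DSP*, *PKP1*, *PKP2*, *PKP3*, *JUP* and *PERP*, picked by symbol from a deposited table of 16811 genes, in which all 10 were found. They fall into 4 desmosomal cadherins, 5 plaque genes and *PERP*. RNA-seq was performed on MCF12A cells, a non-tumorigenic human mammary epithelial line that the source label calls a breast cancer line, with 2 edited and 2 wild-type libraries. In the edited cells the p2 promoter of the long non-coding RNA *C1orf132* had been deleted by CRISPR/Cas9, a gene that hosts miR-29b2 and miR-29c. The wild-type cells carried no deletion. Both were grown in DMEM/F12 with horse serum, EGF, hydrocortisone, cholera toxin and insulin. The edited cells came from colonies of single sorted GFP-positive cells, and the sources used here do not say which colony was sequenced. The wild-type cells are not described as cloned, so the deletion and a difference between colonies cannot be told apart. The series describes the libraries of a genotype as biological replicates without naming separate cultures, so the p-values measure the spread between these libraries. The targeted transcript was not analysed here.

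Desmosomes are the junctions that tie the keratin filaments of neighbouring epithelial cells together. Their transmembrane cadherins, the desmogleins (DSG) and desmocollins (DSC), bind each other between cells. On the inner side plakoglobin (JUP) and the plakophilins (PKP) hold the cadherin tails, and desmoplakin (DSP) links this plaque to keratin. DSG2 and DSC2 are known from simple as well as stratified epithelia, whereas DSG3, DSC3 and PKP1 belong mostly to the basal and stratified type. PERP is a small tetraspan membrane protein that desmosomes of stratified epithelia need.

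Nearly the whole set lay lower in the edited cells. *DSG3*, *DSC2*, *DSC3*, *PKP1* and *PERP* fell, the first 4 of them to between 8.19% and 16.0% of their wild-type mean and *PERP* to 45.1%. *DSG2*, *DSP* and *JUP* also had both edited libraries below both wild-type libraries, at 36.9%, 46.4% and 45.6% of the wild-type mean, but missed the threshold. *PKP3* had overlapping groups, and *PKP2* had higher values in the edited cells without passing the test.

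Values are a normalized expression signal. They were read as scaled per transcript length, because for most short RNAs the value times the length came out as whole multiples of a step, but the authors' normalization is not given in the sources used here. They were tested with limma on log2(value + 1), a scale that understates the change of low genes, and a gene was called at an adjusted p under 0.05. Of the 10 members, 5 were called lower and 0 higher. In the fit of the 9590 genes whose mean was 10 or more, 4 of 9 members were called lower, where 4.2% of all tested genes were lower and 2.89% higher. *DSC2*, under that mean, was tested in the fit of all 16811 genes, where 3.4% of genes were called lower. At an unadjusted p under 0.05 the members numbered 9, of which *PKP2* was the higher gene, where 3095 of the 9590 tested genes had such a p. At an adjusted p under 0.001 the members numbered 0 and the genes of the filtered fit 1. The edited libraries lay wholly below the wild-type libraries for 8 members, above for 1 and overlapped for 1. Over all tested genes 26.9% lay wholly below and 38.3% wholly above. The count of members called lower was 3 without edited replicate 1, 7 without edited replicate 2, and 2 or 0 when wild-type replicate 1 or 2 was left out. The last 2 fits gave 37 and 4 lower calls over all genes, where all 4 libraries gave 403.

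**Figure D1:**
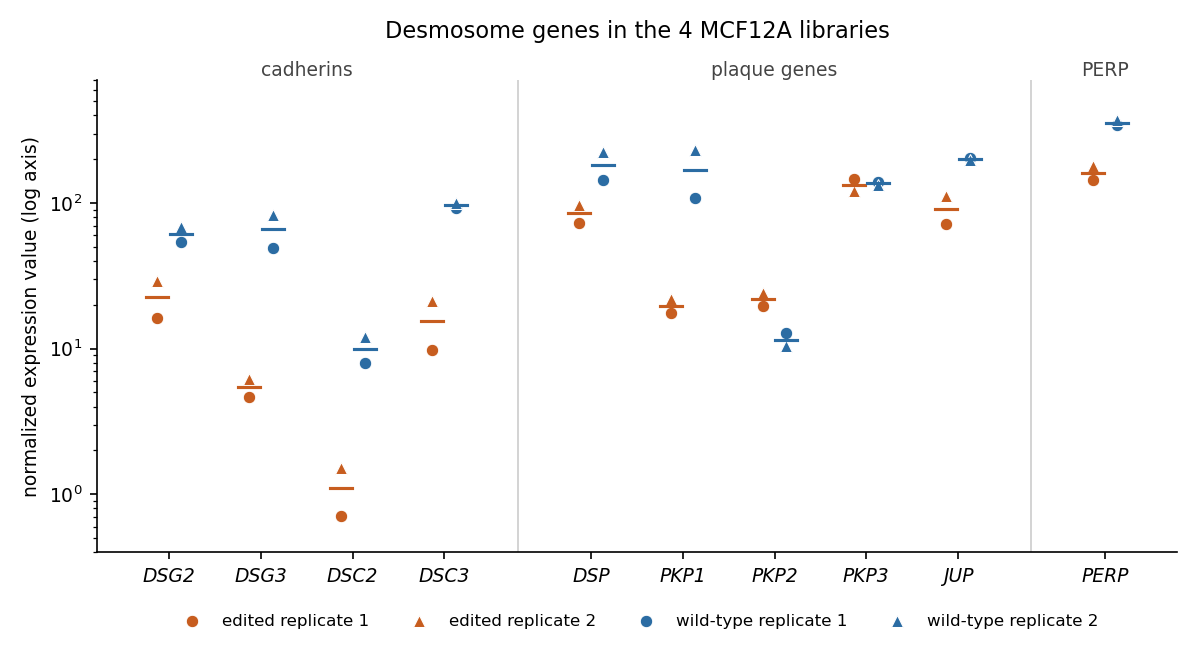
Normalized expression value (log axis) of each desmosome gene in the 2 edited (orange) and 2 wild-type (blue) libraries. Circles are replicate 1, triangles replicate 2 and bars the mean of a group. Both orange points lie under both blue points for 8 genes, whereas *PKP2* has them above and *PKP3* has them overlapping.

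The number of reads behind these values was estimated from short RNAs. A read on a transcript of 1 kb was worth 0.101 and 0.090 in the edited libraries, against 0.108 and 0.101 in the wild type. The value of a read thus differed little between libraries, and the table totals ran from 1444644 to 1655437. Whether the depth was as similar is not known, because the normalization is not given. The least covered member was *DSC2*, with about 86 and 207 reads in the edited libraries. Every other member had about 257 reads or more in each library. These read numbers are approximate and cover counting error only. In bulk RNA, fewer cells expressing a gene and less RNA per cell cannot be told apart.

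The start regions of members that behaved differently are shown first, because the desmosomal cadherin genes lie side by side and had different log2 fold changes. RefSeq windows (GRCh38.p14) were at hand for 8 of the 10 members, not for *PKP2* and *PKP3*, and the 5 printed were chosen after their values were seen. The windows of *DSC2*, *JUP* and *PERP* are not printed. Each line holds the 250 bases before the annotated start, 5′ to 3′ on the strand of the gene. The windows are chr18:31447491-31447740 (plus strand) for *DSG3*, chr18:31497927-31498176 (plus) for *DSG2*, chr18:31042743-31042992 (minus) for *DSC3*, chr1:201283256-201283505 (plus) for *PKP1* and chr6:7541421-7541670 (plus) for *DSP*. Capitals mark, on either strand, CAGGTG (the E-box of the ZEB and SNAI type), TGANTCA (AP-1), AACNGGTT (grainyhead-like core) and GGGCGG (GC box).
DSG3: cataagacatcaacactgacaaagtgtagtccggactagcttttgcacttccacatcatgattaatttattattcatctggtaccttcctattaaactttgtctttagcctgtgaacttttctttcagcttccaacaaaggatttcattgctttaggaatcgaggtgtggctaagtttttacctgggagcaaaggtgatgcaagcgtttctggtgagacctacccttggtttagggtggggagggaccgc
DSG2: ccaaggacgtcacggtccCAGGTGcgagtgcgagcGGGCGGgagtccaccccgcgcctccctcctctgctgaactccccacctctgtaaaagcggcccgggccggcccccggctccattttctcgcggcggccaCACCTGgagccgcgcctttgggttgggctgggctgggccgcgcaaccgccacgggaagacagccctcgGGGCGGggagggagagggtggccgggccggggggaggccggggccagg
DSC3: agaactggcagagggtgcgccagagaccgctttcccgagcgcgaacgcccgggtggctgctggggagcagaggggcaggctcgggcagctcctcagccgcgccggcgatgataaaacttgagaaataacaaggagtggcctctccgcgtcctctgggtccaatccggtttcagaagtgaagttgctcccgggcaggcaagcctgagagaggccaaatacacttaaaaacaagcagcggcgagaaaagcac
PKP1: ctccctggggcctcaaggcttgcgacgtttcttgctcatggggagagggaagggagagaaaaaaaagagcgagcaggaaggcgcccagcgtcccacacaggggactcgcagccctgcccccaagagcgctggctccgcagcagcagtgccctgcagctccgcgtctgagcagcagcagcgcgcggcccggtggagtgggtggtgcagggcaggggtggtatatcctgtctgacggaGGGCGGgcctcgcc
DSP: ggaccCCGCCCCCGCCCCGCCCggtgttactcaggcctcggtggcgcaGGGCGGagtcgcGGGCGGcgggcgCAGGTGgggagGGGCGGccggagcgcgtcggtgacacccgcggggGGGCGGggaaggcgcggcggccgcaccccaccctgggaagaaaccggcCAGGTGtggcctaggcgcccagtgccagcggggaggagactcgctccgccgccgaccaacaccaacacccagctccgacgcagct

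The windows of the members differed in base composition. *DSG3* had a GC content of 42.8% with 4 CpG dinucleotides and *DSC3* had 60.4% with 18, against medians of 58.0% and 11 over all 35116 windows. *PKP1* had 67.6% with 17 CpG, *DSG2* 75.2% with 26, *PERP* 77.2% with 34 and *DSP* 78.0% with 33. The letters of the E-box stood in windows of *DSP*, *DSG2*, *DSC2* and *JUP*, and in 17.5% of all windows. In *DSP* they began 178 and 85 bases before the start, in *DSG2* 232 and 116 bases before it, and in *DSC2* 156 bases before it. The GC box stood in windows of *PKP1*, *DSP*, *PERP*, *JUP*, *DSC2* and *DSG2*, and in 42.6% of all windows. *DSP* held 7 of them, of which those beginning 239 and 234 bases before the start share a base. The AP-1 letters were found in *PERP* alone of the 8 members, 101 bases before its start, and in 6.57% of all windows. The grainyhead-like core was found in 0 of the 10 member windows and in 1.49% of all windows. The windows of *DSG3* and *DSC3* held none of these letters. The E-box letters stood in members with larger changes (*DSC2*, log2 fold change -2.38, not printed) and with smaller ones (*DSP*, -1.08). These matches are a description of the sequence, and binding was not measured.

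*DSG3*, the basal desmoglein and an autoantigen of pemphigus vulgaris, had the largest log2 fold change of the 10 members. Replicates 1 and 2 had values of 4.66 and 6.20 when edited, against 49.3 and 83.3 when wild-type, and this order of replicates is kept throughout. Both edited libraries were far under the lower wild-type library. The means were 5.43 ± 1.09 (SD, n = 2) and 66.3 ± 24.1 (SD, n = 2), a 12.2-fold difference. The log2 fold change was -3.35 (SE 0.30, adjusted p = 0.00865 from limma), and 75 of the 9590 tested genes had a change as low as this. *DSG3* passed the mean filter through its wild-type libraries, and without the filter the adjusted p from limma was 0.0161. Its adjusted p was 0.0836 without wild-type replicate 2, where the log2 fold change was -2.98.

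*DSG2*, the desmoglein found in nearly every desmosome-bearing tissue, fell short of a call. Its values were 16.3 and 29.0 in the edited libraries, against 54.4 and 68.4 in the wild type. The groups did not overlap, but the edited libraries stood well apart from each other. The means were 22.7 ± 9.0 (SD, n = 2) and 61.4 ± 9.94 (SD, n = 2), which is 2.71-fold lower in edited cells. The log2 fold change was -1.44 (SE 0.30, adjusted p = 0.0506 from limma). The adjusted p of *DSG2* was 0.00525 without edited replicate 2, 0.0463 with a pseudocount of 5 and 0.0457 at equal library totals. It was 0.0813 without edited replicate 1, and 0.112 or 0.251 when wild-type replicate 1 or 2 was left out.

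*DSC3*, the basal desmocollin, had values of 9.75 and 21.1 in the edited libraries, against 92.8 and 101 in the wild type. The wild-type libraries were close together, while edited replicate 2 was above edited replicate 1. The means were 15.4 ± 8.06 (SD, n = 2) and 96.8 ± 5.6 (SD, n = 2), a 6.27-fold difference. *DSC3* fell by 2.66 on the log2 scale (SE 0.35, adjusted p = 0.0212 from limma). The call was lost when either wild-type library was left out, with an adjusted p of 0.0854 (replicate 1 left out, log2 fold change -2.72) and 0.147 (replicate 2 left out, -2.60).

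*DSC2*, the widely expressed desmocollin, was the cadherin at the lowest level. Its values were 0.707 and 1.51 in the edited libraries, against 7.92 and 12.1 in the wild type. Edited values near 1 sit close to the pseudocount, so its log2 fold change of -2.38 (SE 0.33, adjusted p = 0.0323 from limma without the filter) is smaller than the 9.01-fold ratio of the means. The means were 1.11 ± 0.570 (SD, n = 2) and 10.0 ± 2.94 (SD, n = 2). This call was lost whichever library was left out, with adjusted p of 0.132 and 0.0594 without edited replicates 1 and 2, and 0.125 and 0.222 without wild-type replicates 1 and 2.

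Among the plaque genes *PKP1*, the plakophilin of stratified epithelia, fell. Its values were 17.6 and 21.9 in the edited libraries, against 108 and 230 in the wild type. The wild-type libraries differed from each other more than the edited ones did, yet both were far above them. The means were 19.8 ± 3.07 (SD, n = 2) and 169 ± 86.0 (SD, n = 2), an 8.54-fold difference. The log2 fold change was -2.94 (SE 0.37, adjusted p = 0.0199 from limma), and 99 of the tested genes had a change as low as this. Without wild-type replicate 2, the higher library, it was -2.40 with an adjusted p of 0.0856.

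The other plakophilins were not called. *PKP2*, the plakophilin of heart and simple epithelia, had values of 19.8 and 24.2 in the edited libraries, against 12.8 and 10.4 in the wild type. Here both edited libraries were the higher ones, by 1.90-fold on the means of 22.0 ± 3.13 (SD, n = 2) and 11.6 ± 1.7 (SD, n = 2). The log2 fold change of 0.87 (SE 0.22) had an adjusted p of 0.0687 from limma. *PKP3*, found in most epithelia, had values of 145 and 121 in the edited libraries, against 139 and 134 in the wild type. The wild-type values lay between the edited ones. The means were 133 ± 17.1 (SD, n = 2) and 137 ± 3.95 (SD, n = 2), with a log2 fold change of -0.04 (SE 0.20). Its adjusted p was 0.898 from limma, and leaving out libraries moved its log2 fold change between -0.18 and 0.09.

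*DSP*, the desmoplakin that anchors keratin, had values of 72.8 and 97.6 in the edited libraries, against 143 and 224 in the wild type. The groups did not overlap, with means of 85.2 ± 17.5 (SD, n = 2) and 184 ± 57.5 (SD, n = 2), a 2.16-fold difference. The log2 fold change of -1.08 (SE 0.29) had an adjusted p of 0.0783 from limma. Over the alternatives this ran from 0.0429, without edited replicate 2, to 0.309, without wild-type replicate 2. *JUP*, plakoglobin, which also serves adherens junctions, had values of 71.5 and 112 in the edited libraries, against 204 and 197 in the wild type. Its wild-type libraries were nearly equal and both edited ones lay under them, with means of 91.6 ± 28.4 (SD, n = 2) and 201 ± 4.77 (SD, n = 2), which is 2.19-fold lower. The log2 fold change of -1.16 (SE 0.26) had an adjusted p of 0.0582 from limma. Over the alternatives this ran from 0.0147, without edited replicate 2, to 0.248, without wild-type replicate 2. For *JUP* the call also depended on the scaling, with adjusted p of 0.0437 at equal library totals, 0.0489 after quantile and 0.0486 after cyclic loess normalization.

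*PERP*, the most abundant member on the length-scaled values in 3 of the 4 libraries, had 144 and 178 in the edited libraries, against 343 and 371 in the wild type. Replicates were close in both groups. The means were 161 ± 24.5 (SD, n = 2) and 357 ± 20.4 (SD, n = 2), a 2.22-fold difference. *PERP* fell by 1.15 on the log2 scale (SE 0.21, adjusted p = 0.0416 from limma). This call was lost without edited replicate 1 (adjusted p = 0.122), wild-type replicate 1 (0.108) or wild-type replicate 2 (0.212).

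**Figure D2:**
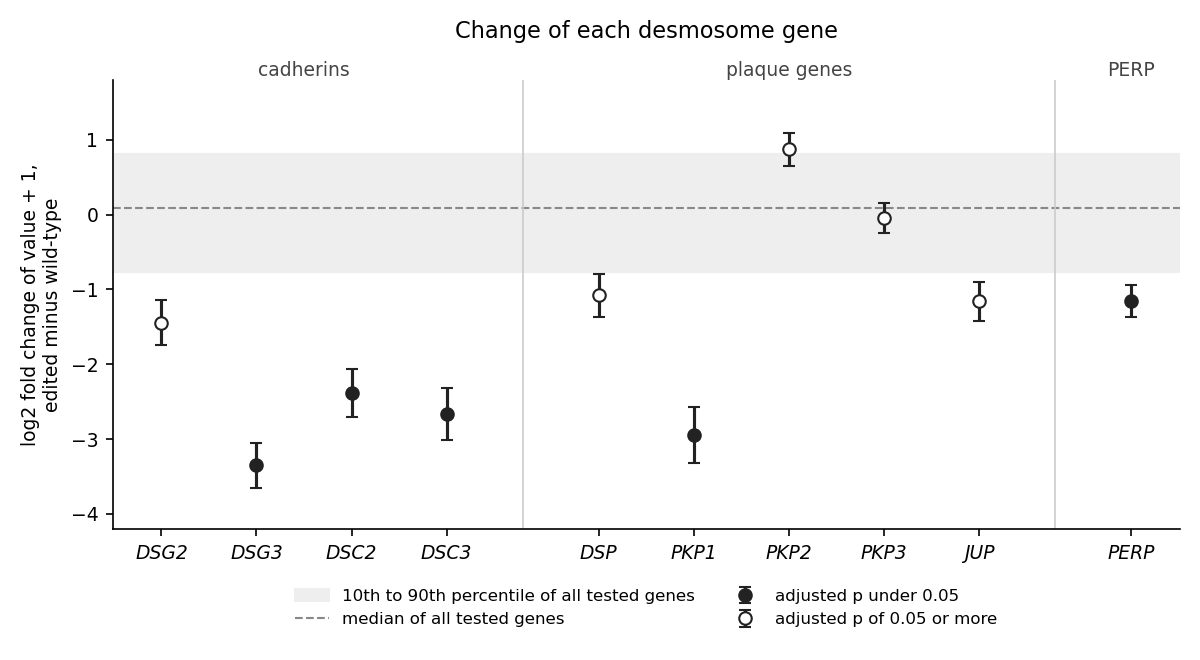
Log2 fold change (edited minus wild-type, on log2 of value + 1) of each desmosome gene with its standard error from limma. Filled points have an adjusted p under 0.05. The dashed line is the median (0.09) and the band the 10th to 90th percentile (-0.77 to 0.81) of the 9590 tested genes, and all members but *PKP2* and *PKP3* have their point under the band, with *PKP2* just above it.

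By class, the median log2 fold change was -2.52 for the cadherins and -1.08 for the plaque genes, beside -1.15 for *PERP* and 0.09 for all tested genes. Of the cadherins 3 of 4 were called lower and 4 of 4 had non-overlapping groups. Of the plaque genes 1 of 5 was called lower, and 3 had non-overlapping groups with the edited libraries lower and 1, *PKP2*, with them higher. The classes overlapped, with the plaque gene *PKP1* at -2.94 and the cadherin *DSG2* at -1.44. Over all genes 4.2% were called lower in the filtered fit and 3.4% in the fit that gave *DSC2*. Of the tested genes 26.9% lay wholly below and 38.3% wholly above. Edited replicate 2 was above edited replicate 1 in 9 of 10 members, *PKP3* being the exception. Wild-type replicate 2 was above wild-type replicate 1 in 7 of 10, including all 4 cadherins. The same shares over all tested genes are not given here, so these counts are not read as a trait of the members.

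Sums, shares and the order of different members rest on the reading of the values as scaled per transcript length. The summed cadherin values were 31.4 and 57.9 in the edited libraries, against 204 and 265 in the wild type, 5.25-fold lower on the means of 44.7 ± 18.7 (SD, n = 2) and 234 ± 42.5 (SD, n = 2). The summed plaque values were 327 and 376 against 607 and 796, with means of 351 ± 34.9 (SD, n = 2) and 702 ± 133 (SD, n = 2). Cadherins thus made up 8.78% and 13.3% of the cadherin and plaque values in edited cells and 25.2% and 24.95% in wild-type cells. Per unit of *DSP*, the cadherin sum was 0.432 and 0.594 in edited and 1.43 and 1.18 in wild-type libraries. Per unit of *JUP* it was 0.440 and 0.519 against 1.00 and 1.34. For *JUP* and *DSP* the groups overlapped, with *JUP* per *DSP* at 0.982 and 1.14 in edited and 1.43 and 0.880 in wild-type libraries. *PERP* per *DSP* overlapped as well, at 1.97 and 1.83 against 2.39 and 1.65.

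The make-up of each family was compared as a share, which does not depend on the scaling between libraries. *DSG3* made up 22.2% and 17.6% of the desmoglein values (*DSG2* + *DSG3*) in edited and 47.5% and 54.9% in wild-type libraries, so *DSG2* was the larger part of the pair in edited cells and near parity with *DSG3* in wild-type cells. The shares of the desmocollins lay closer together, with *DSC3* at 93.2% and 93.3% of *DSC2* + *DSC3* in edited and 92.1% and 89.3% in wild-type libraries. *PKP1* made up 9.64% and 13.1% of the plakophilin values in edited and 41.5% and 61.4% in wild-type libraries. The share of *PKP3* was 79.5% and 72.4% against 53.6% and 35.8%. The share of *PKP2* was 10.8% and 14.5% against 4.90% and 2.77%. The mean differences in share, edited minus wild-type, were -31.3 percentage points for *DSG3*, 2.57 for *DSC3*, -40.1 for *PKP1*, 8.83 for *PKP2* and 31.3 for *PKP3*. In the exact two-sided permutation test, each share and ratio without overlap gave p = 0.33 (0.40 after Benjamini-Hochberg adjustment over 12 quantities), the smallest that 2 against 2 libraries allow, and the overlapping ratios gave p = 1.

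**Figure D3:**
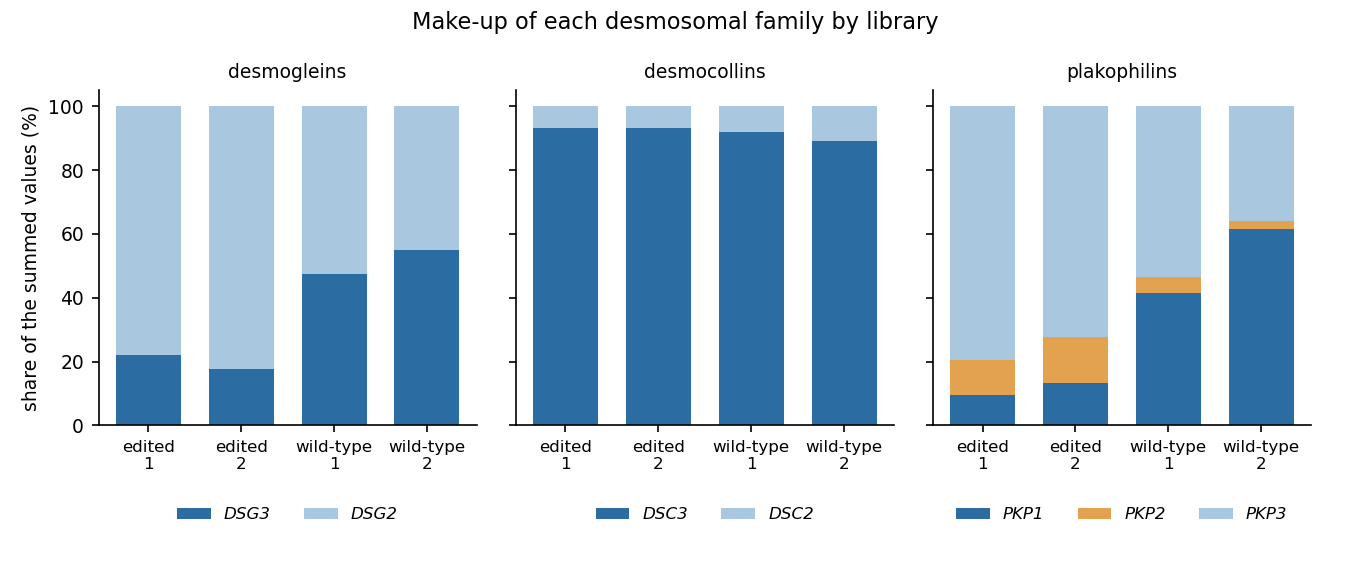
Share (%) of each gene in the summed normalized values of its family, per library, for desmogleins, desmocollins and plakophilins. *DSG3* takes 17.6% to 22.2% of its family in edited and 47.5% to 54.9% in wild-type libraries, *PKP1* takes 9.64% to 13.1% against 41.5% to 61.4%, and *DSC3* stays between 89.3% and 93.3%.

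The order of the members by level differed between the groups. Both wild-type libraries had *PERP* first, *PKP2* and *DSC2* in the last 2 places, and *JUP*, *DSP*, *PKP1* and *PKP3* in places 2 to 5. In the edited libraries *PERP*, *PKP3*, *DSP* and *JUP* took the first 4 places and *PKP1* dropped to place 6 or 7, beside *PKP2*. *DSC3*, *DSG3* and *DSC2* took places 8, 9 and 10 in both edited libraries. Neighbours such as *DSP* and *JUP* changed places between replicates of a group, so their order was within the spread.

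The desmosomal cadherin genes form a cluster on chromosome 18, chr18:30989365-31549008 in GRCh38.p14, a span of 560 kb. *DSC3* (30989365 to 31042742) is followed by *DSC2* (31058840 to 31102421), *DSC1*, *DSG1*, *DSG4*, *DSG3* (31447741 to 31478702) and *DSG2* (31498177 to 31549008). *DSC1*, *DSG1* and *DSG4* were not analysed here. All 4 analysed genes of the cluster lay lower in the edited libraries, while the nearest genes of the table on either side did not. The 3 after it were *B4GALT6* (73.2 kb away, log2 fold change 0.59), *TRAPPC8* (-0.04) and *RNF138* (0.32), and none was called. Before it, *TAF4B* (4598 kb away, 0.29) and *KCTD1* (4332 kb away, 0.13) were not called. *B4GALT6* and *TAF4B* had low values and were tested without the filter. *CDH2*, the classical N-cadherin 2812 kb before the cluster, rose by 2.56 (SE 0.37, adjusted p = 0.0347 from limma without the filter), from 0.429 and 0.0996 in wild-type to 4.52 and 8.87 in edited libraries. The 122 other tested genes of chromosome 18 had a median log2 fold change of -0.02, with a 10th percentile of -0.74. The remaining members are spread over chromosomes 1 (*PKP1*), 6 (*DSP* and *PERP*), 11 (*PKP3*), 12 (*PKP2*) and 17 (*JUP*), whose other tested genes had medians between 0.06 and 0.23.

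**Figure D4:**
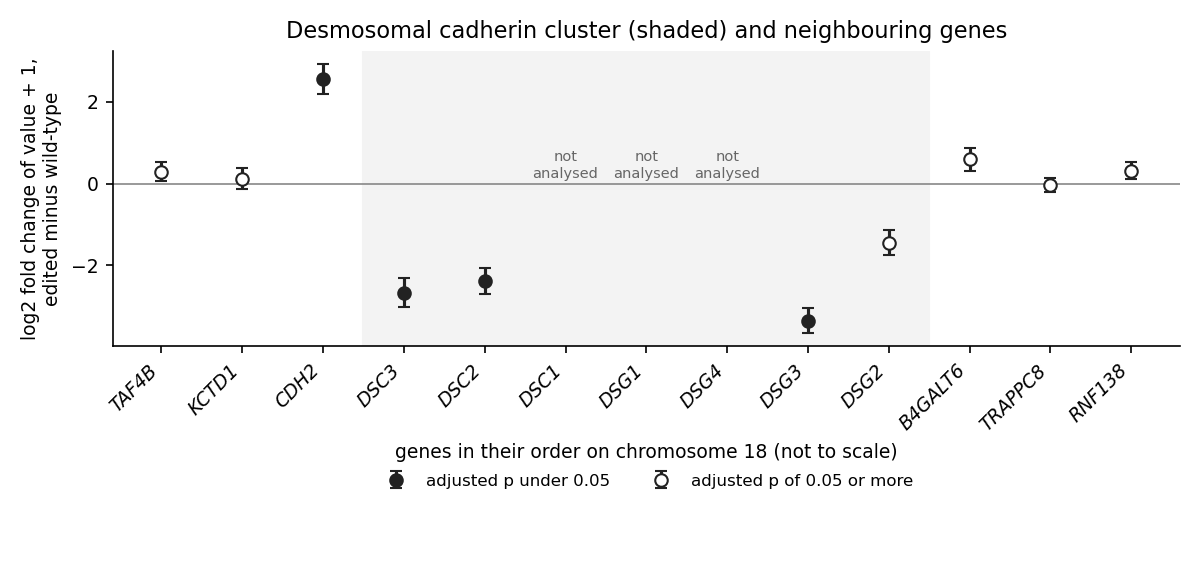
Log2 fold change (edited minus wild-type) with its standard error for the genes of the desmosomal cadherin cluster (shaded) and the nearest 3 genes of the table on each side, in chromosome order and not to scale. Filled points have an adjusted p under 0.05. The 4 cadherins lie between -3.35 and -1.44, their neighbours other than *CDH2* between -0.04 and 0.59.

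The remaining desmosomal and plakin genes were read from a list of 11, of which 7 were in the table. Of these *PPL* (periplakin, a cornified envelope and filament linker) was called lower, with 0 called higher and a median of -0.28. *PPL* had 4.53 and 4.05 in the edited libraries, against 21.4 and 21.0 in the wild type, a log2 fold change of -2.07 (SE 0.23, adjusted p = 0.0148 from limma). *EVPL*, its envelope partner, had a log2 fold change of -0.88 and an adjusted p of 0.0731. *PLEC* (0.52), *DST* (-0.31) and *PKP4* (-0.28) were not called. Among 6 of 7 listed regulators of desmosomes, limma called 0 genes, with a median of 0.01. Their log2 fold changes ran from -1.21 (*EGFR*, adjusted p = 0.0958 from limma) to 0.50 (*RHOA*, 0.197). *EGFR* had 38.7 and 81.5 in the edited libraries, against 148 and 116 in the wild type.

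The keratins, which the plaque anchors, moved in both directions, most of them towards lower values in the edited cells. Of 11, 2 were called lower (*KRT6B* and *KRT17*) and 1 higher (*KRT8*), with a median of -2.11. *KRT17*, a basal keratin, had 621 and 1738 in the edited libraries, against 4947 and 5828 in the wild type (log2 fold change -2.37, adjusted p = 0.0491 from limma). *KRT8*, a keratin of simple epithelia, had 378 and 365 against 194 and 175 (log2 fold change 1.01, adjusted p = 0.0449). The listed *KRT7* (0.56) and *KRT18* (0.89) had overlapping groups and were not called. *KRT19* was lower, with 0.471 and 0 against 2.70 and 6.42 (log2 fold change -2.11), and was not called either. The basal pair *KRT5* (-1.17, adjusted p = 0.146) and *KRT14* (-3.08, adjusted p = 0.0512) was not called.

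In the other junctions, the adherens list had 3 genes called lower and 1 higher of 11, with a median of -0.25. *CDH1* (E-cadherin) had 3.89 and 1.54 in the edited libraries, against 150 and 123 in the wild type (log2 fold change -5.28, adjusted p = 0.00328 from limma). *CDH3* (-2.61) and *NECTIN4* (-1.77) were called lower and *CDH2* higher. *CTNNB1*, the beta-catenin that is the close relative of plakoglobin, had 175 and 205 against 198 and 187. Its ratio to *JUP* was 2.44 and 1.83 in edited and 0.972 and 0.946 in wild-type libraries, without overlap (exact two-sided permutation test, p = 0.33). The tight junction list had 7 genes called lower (*CLDN7*, *CGN*, *MARVELD3*, *LSR*, *CXADR*, *TJP3* and *F11R*) and 0 higher of 12 analysed, with a median of -1.77. Of these *CGN*, *MARVELD3*, *CXADR* and *TJP3* came from the fit without the filter. Their edited values, 0.201 to 2.74, sit close to the pseudocount. Of the 7 hemidesmosome genes *COL17A1* was called lower (-1.75), with a median of -0.66.

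**Figure D5:**
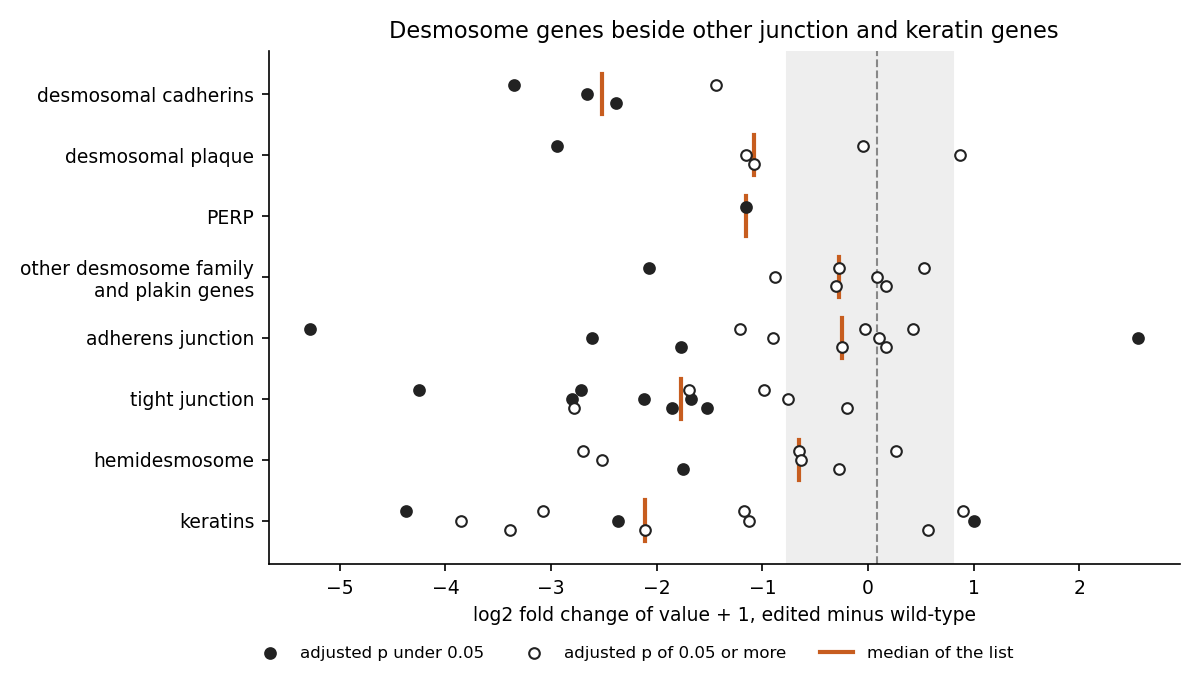
Log2 fold change (edited minus wild-type) of each gene of the desmosome classes and of the other listed junction, plakin and keratin genes. Filled points have an adjusted p under 0.05, the orange bar is the median of a list, the dashed line the median of all tested genes and the band their 10th to 90th percentile. The medians run from -2.52 for the desmosomal cadherins to -0.25 for the adherens junction list.

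Transcription factors of epithelial and mesenchymal programmes were listed beside the members. Of 9 epithelial factors 5 were called lower (*TP63*, *GRHL1*, *GRHL2*, *KLF4* and *OVOL1*), with a median of -1.79. Of these *GRHL1*, *KLF4* and *OVOL1* came from the fit without the filter, as did *ZEB1* below. *TP63*, the factor of basal epithelial identity, had 12.6 and 31.2 in the edited libraries, against 134 and 126 in the wild type (log2 fold change -2.65, adjusted p = 0.0284 from limma). *GRHL2*, a grainyhead-like factor, had 0.137 and 0.0460 against 26 and 26.2. Of 6 mesenchymal factors 2 were called higher (*ZEB1* and *TWIST2*), with a median of 0.97. *ZEB1* had 5.83 and 6.80 in edited and 0.33 and 0.927 in wild-type libraries. Whether any of them acts on the desmosome genes was not tested.

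Markers of cell types were also read in each library. Of the 8 epithelial markers 3 were called lower (*CDH1*, *ESRP1* and *EPCAM*). The summed values of all 8 ran from 3561 to 3900 in edited and from 5986 to 14301 in wild-type libraries. Most of each sum was *KRT5*, which was not called, with 3514 and 3056 in edited and 4590 and 11914 in wild-type libraries. *KRT18* had overlapping groups and a log2 fold change of 0.89, with 266 and 296 in edited and 275 and 82.2 in wild-type libraries. *KRT19* was at 0 in edited replicate 2. Fibroblast markers were represented by 2 of 8 genes, with sums of 18.3 and 111 in the edited libraries, against 23.0 and 29.2 in the wild type. In them *COL1A1* was called lower (-2.06, adjusted p = 0.0420 from limma), and *DCN* had 15.1 and 105 against 7.42 and 1.09. The leukocyte markers *CD14* and *CD68* were not called, with sums between 41.7 and 58.4, and the other leukocyte and all 5 endothelial markers were not analysed here. The part of these differences in the result for the desmosome genes was not tested.

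The tested genes nearest to *DSP* in their pattern were taken by distance in log2(value + 1), centred per gene, over the 4 libraries. They were *LINC01002* (distance 0.0386), *BAZ2B* (0.0558), *LLNLF-173C4.2* (0.0675), *RP4-717I23.3* (0.151) and *NOTCH2NL* (0.160). *DSC2*, under the mean filter, was not ranked, and none of the other members was among these 5. Their log2 fold changes ran from -1.14 to -1.05, and none was called. Closeness to the change of *DSP* follows from how they were picked.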

How the data were processed

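RNA-seq was read from 1 deposited table with 16811 genes and 2 edited and 2 wild-type libraries (poly(A) RNA, TruSeq, single-end reads of 75 bases, per the labels). The submitters' processing notes name Salmon, HISAT2 and hg38. Their roles, the annotation and the normalization are not given in the sources used here. The deposited values are a signal, not counts, and no count model was fitted. They were taken as scaled per transcript length, which was inferred from the values. The value of 1 read was estimated from RNAs of at most 110 bases, whose value times length is a whole multiple of a step (tolerance 0.05 of a read, 48 to 54 of 63 to 69 RNAs per library).

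The 9590 genes whose mean was 10 or more entered a fit in limma 3.58.1 (R 4.3.3, lmFit, eBayes with trend) on log2(value + 1). P-values were adjusted by Benjamini-Hochberg, with calls under 0.05. Genes under that mean were taken from the same fit over all 16811 genes. Shares and ratios were compared with an exact permutation test over the 4 libraries. The members and lists were chosen with earlier results of these data known, and some genes of the lists are not reported here. Genes named are the members, listed genes past the threshold or defining a cell type, up to 3 neighbours on each side of the cadherin cluster and the 5 genes nearest to *DSP*. Listed genes that were not called were named after their values were seen. Positions and start windows came from RefSeq (GRCh38.p14), and transcript lengths from GENCODE release 44. A threshold of 0.001, the level the study gives for its RNA-seq, was an alternative. The counts given here at that level are from limma. Those the study reported at it were far larger in both directions. Further alternatives in pseudocount, filter, scaling, trend, block and left-out libraries were computed.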

Additional observations from a re-analysis of the deposited data

How the results depend on the processing

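The count of 5 desmosome genes called lower ran from 0 to 7 when each library was left out in turn, and was 0 at an adjusted p under 0.001. With other pseudocounts, filters, scalings or no trend it lay between 5 and 7, and 0 members were called higher under every alternative. Over all genes, 403 lower calls became 191 at a mean of at least 50 and 1 at an adjusted p under 0.001, and ran from 4 to 749 with a library left out. The 277 higher calls became 0 at an adjusted p under 0.001 and ran from 0 to 682 with a library left out. In these fits the library left alone in its group is assumed to vary like the other group. The median of the cadherins was -1.83 with a pseudocount of 5. *PKP3* ran from -0.18 to 0.086 with a library left out, reversing without edited replicate 2. Of 130 alternative values of single members, 106 kept direction and call, 9 gained a call, 14 lost one and 1 reversed. Equal library totals moved the median of all genes by -0.12, so that *JUP* and *DSG2*, at -1.28 and -1.56, were called there.

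Replicate numbers were not shown to pair the libraries (correlation of same-numbered deviations -0.14). With the replicate block, 2 members were called lower, *DSC2* (adjusted p = 0.0560 from limma), *DSC3* (0.0525) and *PERP* (0.0675) being lost, and all genes gave 107 lower and 26 higher calls. A crossed pairing, added after seeing the data, gave 7 members lower, beside 580 genes lower and 422 higher over all genes. Depth is known only as an estimate, and limits *DSC2* most.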
